A study of Mus musculus with 6 samples.

Results

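Stimulated CD8+ T cells were compared at 8 h and at 4 h after engagement of the T cell receptor and CD28. The comparison used 4 of the 6 arrays of the series, chosen by their titles: 1 wild-type (Nrdp1+/+) and 1 Nrdp1-/- array at each of the 2 times, paired by genotype, with the 2 untreated arrays left out of the test. All cells were labelled as naive CD8+ T cells of the spleen, from mice of strain C57/BL6. By the treatment protocol all 4 cultures received immobilized anti-CD3 at 5 µg/ml together with soluble anti-CD28 at 1 µg/ml, while the short treatment label names anti-CD28 alone. The knockout animals lack Nrdp1, the product of Rnf41, which attaches ubiquitin to its targets as an E3 ligase. The labels do not give the kind of deletion, the age of the mice, how many mice gave each RNA, or whether the 4 h and 8 h cells of a genotype came from 1 animal. With 1 array per genotype and time, the error behind each p-value comes from how far the changes of genes of like brightness differed between the genotypes, a spread that may be technical.

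A naive CD8+ T cell that meets antigen and costimulation first transcribes immediate early transcription factors, cytokines and chemokines from genes that are already poised. Much of this early wave is short-lived, because the factors induce their own inhibitors and because many of the transcripts are unstable. Later transcripts supply what the cell needs to grow and kill: nutrient uptake, amino acid and nucleotide synthesis, the high-affinity interleukin-2 receptor and the proteases of cytotoxic granules. The comparison between the 2 times asks which genes of the first wave had begun to fade and which were still rising.

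Values are MAS5 signals on a linear scale, and differences are 8 h minus 4 h in log2(signal + 4.5). A gene was called where limma, with genotype as the block that pairs the arrays, gave an adjusted p under 0.05. Median signals ran from 61.5 to 68.6 per array, and the ratio of Gapdh probe sets at the 2 ends of the transcript, a sign of RNA integrity, ran from 0.815 to 0.894. The extraction text of the labels names colon, while titles and cell type name CD8+ T cells. Of 7 CD8 T cell markers on the array, 7 lay above the array median on every array, and of 13 colon markers 2 to 6 did. Of 11 memory-like CD8 T cell markers 11 did on every array. Their summed signal was 45211 and 43991 in wild type and 53752 and 51917 in Nrdp1-/- at 4 h and 8 h. Whether the cells were naive, as labelled, was not tested. The summed signal of the CD8 markers was 72620 at 4 h and 67419 at 8 h in wild type, and 72208 and 62449 in Nrdp1-/-. Myeloid markers differed between the Nrdp1-/- arrays, with a summed signal of 9874 at 4 h and 3791 at 8 h, against 2773 and 2541 in wild type. Signal of B cell markers was 14142 and 14681 in wild type and 3061 and 3053 in Nrdp1-/-. In bulk RNA a smaller number of cells of a type and less RNA per cell cannot be told apart. The brightest Rnf41 probe set read 505 and 639 in wild type and 437 and 477 in Nrdp1-/- at 4 h and 8 h. The sources used here do not say which of its 4 probe sets the deletion removes, so this reading does not check the labels.

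**Figure D1:**
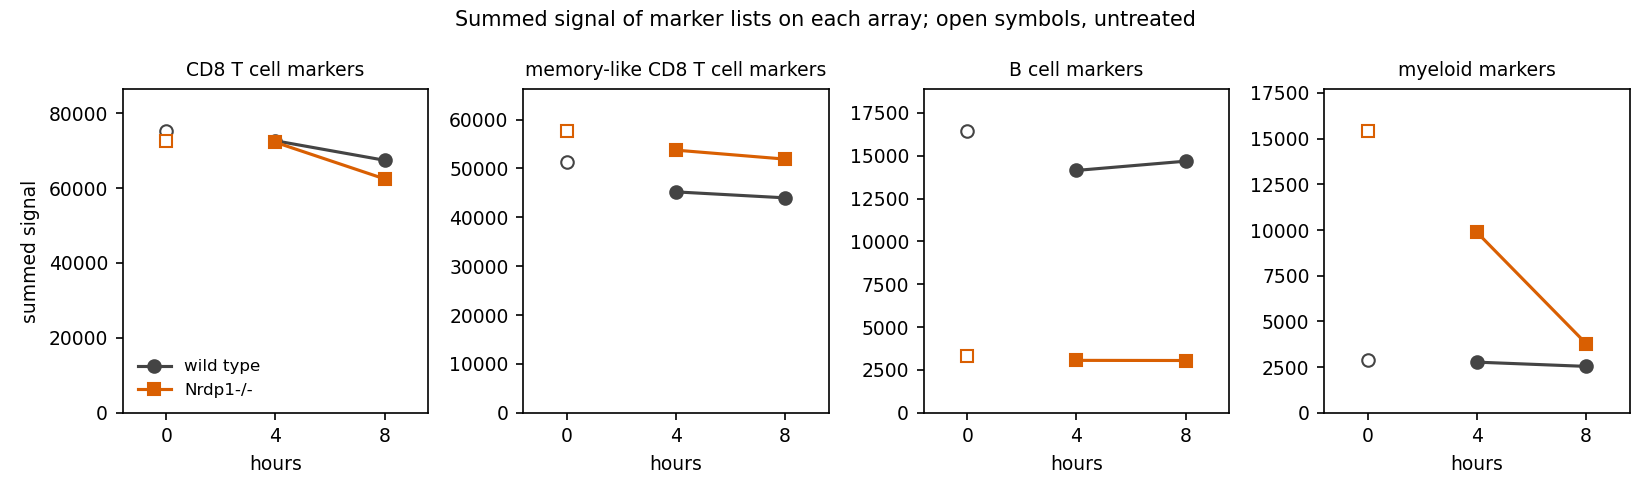
Summed signal on each array of 4 marker lists, with all members that have a probe set, dim ones included, against hours of stimulation (linear axes from 0). Grey circles are wild type, orange squares Nrdp1-/-, and open symbols the untreated arrays. The myeloid sum of the Nrdp1-/- arrays lay at 9874 at 4 h and 3791 at 8 h, while those of wild type lay at 2773 and 2541.

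Of 10037 genes tested, 50 were higher (0.498%) and 77 lower (0.767%) at 8 h than at 4 h. The median size of the difference was 0.72 among the higher and -0.69 among the lower genes, so most changes were smaller than 2-fold, and 11 higher and 16 lower genes passed that size. All but 1 of the 127 genes had the same sign in both genotypes, and 47 differed by at least 1.5-fold in each. Genes were called on the mean of these same 2 differences, which favours equal signs, so this is no separate check. Over all genes tested, the differences of the 2 genotypes, which share no array, were only weakly related (Pearson r = 0.12, Spearman rho = 0.0704, across genes, which are not independent replicates). At least 1.5-fold in both genotypes, 59 genes were higher (0.588%), 63 lower (0.628%) and 51 moved in opposite directions (0.508%). At least 2-fold in both, 6 were higher (0.0598%), 4 lower (0.0399%) and 0 opposite, while 307 passed 2-fold in 1 genotype alone. Both 8 h arrays lay above both 4 h arrays in 1425 genes (14.2%) and below both in 1601 (16%). A lack of overlap between the times, given below for single genes, was thus common over all genes. Among called genes it held for 40 of the 50 higher and 57 of the 77 lower.

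The calls rest on the variance model. The paired model had 1 residual degree of freedom and limma's estimate of the prior ones was infinite, which gave every gene of a given brightness the same error (SE 0.13 to 0.47 over the genes tested). Without the intensity trend 1 gene was called, Cth. With the untreated arrays added to estimate the spread, 6 of the 127 were called: Bcl2 and Gzmb higher, and Ephx1, Ift80, Mdn1 and Xcl1 lower. Without the genotype block 0 genes were called and 355 had an unadjusted p under 0.05, against 845 with it. Centring each array on its median took the median difference of all genes tested from -0.03 to -0.18 in Nrdp1-/- and from 0.01 to 0.04 in wild type, and left 13 higher and 35 lower genes, so that 27.1% of calls were higher in place of 39.4%. In this text "rose" and "fell" mean called with the pairing and the trend.

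**Figure D2:**
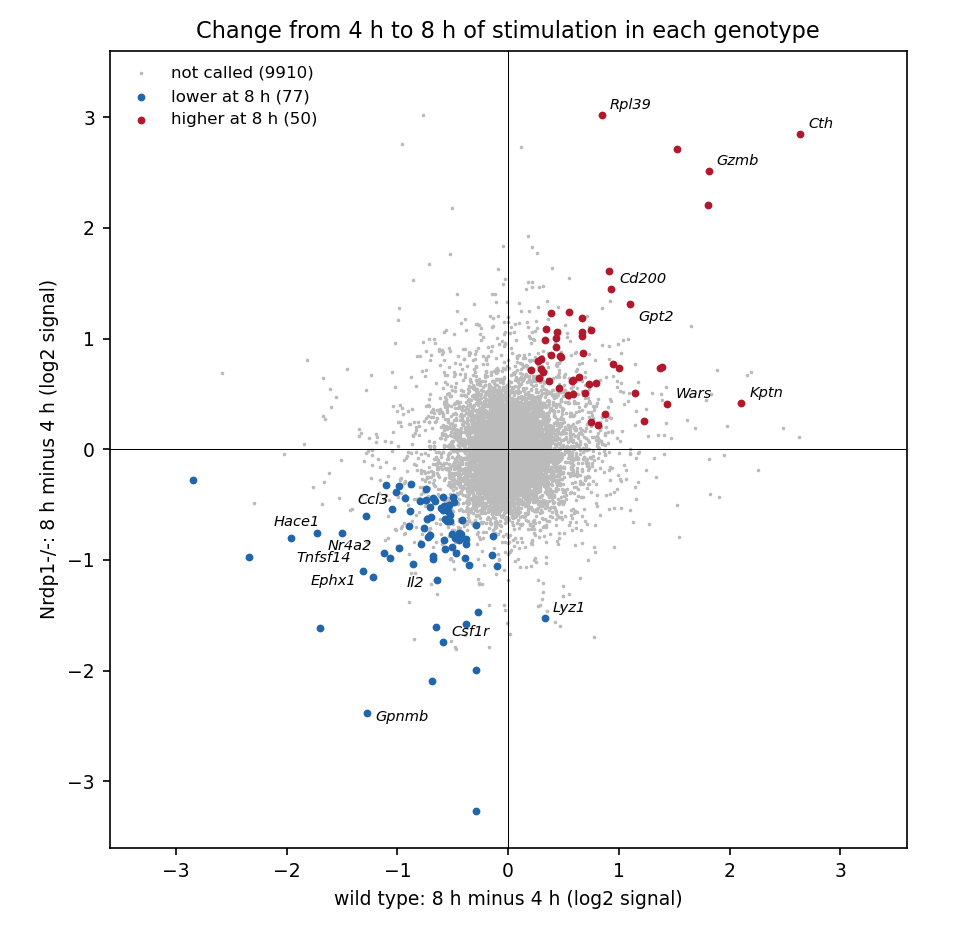
Each point is 1 of the 10037 genes tested, with its 8 h minus 4 h log2 difference in wild type (x axis) and in Nrdp1-/- (y axis). Red points are the 50 genes called higher, blue points the 77 called lower, grey points the rest. Cth and Gzmb lie farthest along the diagonal, and Lyz1 is the 1 called gene whose differences have opposite signs.

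The orphan nuclear receptors of the Nr4a family, immediate early transcription factors that restrain T cell responses, all fell. Nr4a2 read 1455 at 4 h and 436 at 8 h in wild type, and 1654 and 977 in Nrdp1-/-. Both 8 h signals lay below both 4 h signals, as in 16% of all genes tested. The mean change was -1.24 ± 0.15 (SE, limma, adjusted p = 1.35e-12), or 2.36-fold lower. Nr4a1 went from 4291 to 2538 in wild type and from 6434 to 3939 in Nrdp1-/- (-0.73 ± 0.13, adjusted p = 1.07e-05, limma), again without overlap between the times. Nr4a3 went from 4033 to 2189 and from 5888 to 4738 (-0.60 ± 0.13, adjusted p = 0.00111, limma). Its Nrdp1-/- signal at 8 h was above the wild-type signal at 4 h, so the times overlapped for Nr4a3. Of the 3 members 3 were lower, where the percentage called lower over all genes was 0.767%. The 8 h signals of all 3 were still above those of untreated cells, which lay between 70 and 491.

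Egr factors, zinc finger proteins induced within the first hour of receptor engagement, were lower as well. Of 5 measured members of the Egr and Nab list 5 were lower in both genotypes and 2 were called. Over all genes 26.7% were lower in both and 0.767% were called lower. Egr2, which limits T cell activation, was 1185 and 571 in wild type and 2271 and 1558 in Nrdp1-/- (-0.80 ± 0.15, adjusted p = 2.31e-05, limma). A second probe set of Egr2 differed by -1.56 and -0.17. Egr1 fell from 5540 to 3513 and from 8583 to 6216 (-0.56 ± 0.13, adjusted p = 0.00309, limma). For both genes the Nrdp1-/- array at 8 h stood above the wild-type array at 4 h, so only the paired comparison separated the times. Egr3 (-0.63 in wild type and -0.25 in Nrdp1-/-) and the corepressors Nab2 (-0.52 and -0.41) and Nab1 (-0.05 and -0.29) were not called. Of 7 AP-1 genes, Fos fell, from 906 to 557 and from 1875 to 1225 (-0.65 ± 0.15), with overlap between the times. Fosl2 (-0.93 and -0.29) and Junb (-0.49 and -0.22) did not pass, and Jun was at 0.40 and 0.06.

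Il2, the growth factor that T cells make for themselves, fell by nearly the same amount in both genotypes. It read 2632 and 1450 in wild type and 3289 and 1603 in Nrdp1-/- at 4 h and 8 h, against 18 and 28 in untreated cells. Both 8 h arrays were below both 4 h arrays, as in 16% of all genes tested. The mean change of Il2 was -0.95 ± 0.14 (limma, adjusted p = 3.51e-09 and 0.0746 with all 6 arrays), or 1.93-fold lower. It was the 1 called member among 13 cytokines, where 0.767% of all genes were called lower.

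Of 8 chemokines 3 fell, against 0.767% called lower over all genes, and the other 5 did not pass. With all 6 arrays 1 was called, Xcl1. Xcl1, which draws cross-presenting dendritic cells, was 3397 and 1715 in wild type and 5453 and 2936 in Nrdp1-/- (-0.94 ± 0.13, adjusted p = 1.8e-09 by limma and 0.0217 with all 6 arrays). Ccl3, an inflammatory chemokine, was 6031 and 2476 in wild type and 8351 and 5482 in Nrdp1-/-, a change of -1.28 in the former and -0.61 in the latter. Its relative Ccl4 was 8358 and 4526, and 13440 and 9133 (-0.72 ± 0.13, adjusted p = 3.17e-05, limma). The times did not overlap for Xcl1 and Ccl3, and they did for Ccl4, whose Nrdp1-/- signal at 8 h exceeded the wild-type signal at 4 h. Cxcl10, an interferon-induced chemokine, was not called at -0.32 and -0.36. Tnfsf14, a ligand of the TNF family that costimulates T cells, fell from 840 to 384 in wild type and from 1240 to 645 in Nrdp1-/- (-1.03 ± 0.17, adjusted p = 6.91e-07, limma). It was 2.04-fold lower at 8 h, with no overlap between the times, and was the 1 of 7 TNF family ligands called lower.

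Other effector cytokines were not called. Ifng, the interferon of T cells, was 1011 and 825 in wild type but 3786 and 6323 in Nrdp1-/-, differences of -0.29 and 0.74. Tnf was 820 and 822 in wild type and 1919 and 1231 in Nrdp1-/-, at 0.00 and -0.64. For these genes the genotypes differed in sign or in size and no call was made (limma, adjusted p = 0.758 for Ifng and 0.497 for Tnf). Csf2, a myeloid growth factor, was at -0.62 and -0.02.

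**Figure D3:**
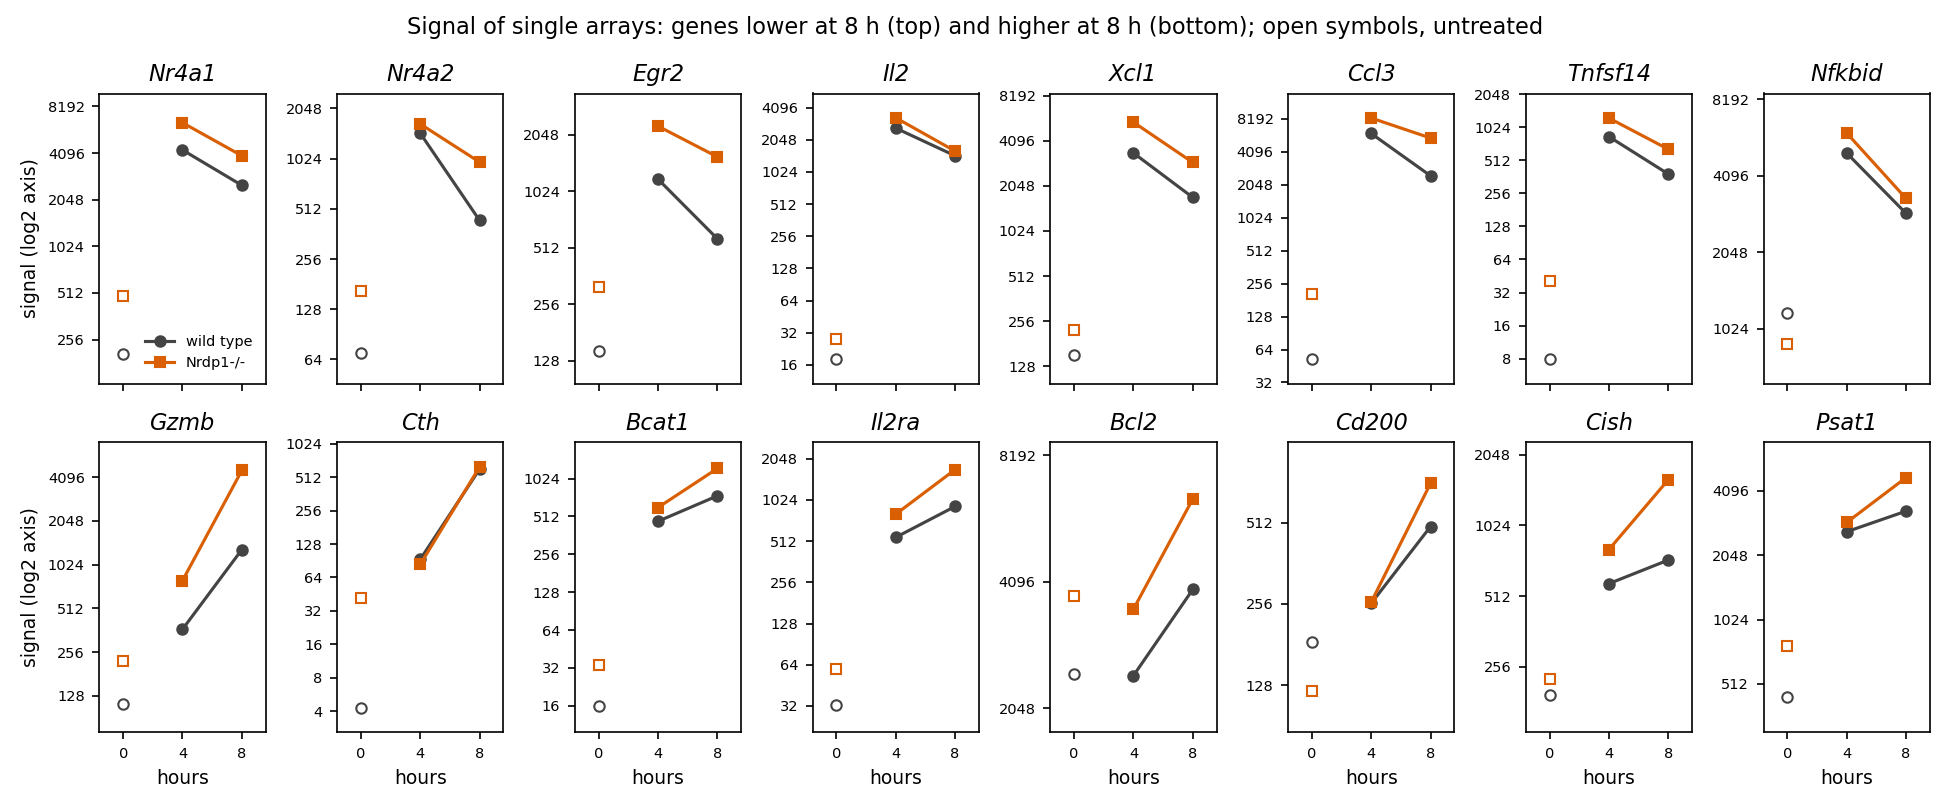
Signal on each array (log2 axis) of 8 genes called lower (top row) and 8 called higher (bottom row) at 8 h than at 4 h. Grey circles are wild type, orange squares Nrdp1-/-, and open symbols the untreated arrays, which took no part in the test. All top-row genes fell from 4 h to 8 h in both genotypes and stayed above the untreated arrays, while Gzmb rose from 367 to 1299 and from 795 to 4560.

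Genes of the NF-kB pathway, which carries signals from the receptor to survival and cytokine genes and shuts itself down through inhibitors that it induces, were lower as a list. Of 17 measured members 14 were lower in both genotypes and 1 higher, against 26.7% lower and 23.7% higher in both over all genes tested. The list median was -0.17 in wild type and -0.38 in Nrdp1-/-. With each array centred on its median 13 of 17 were lower in both, against 31.1% of all genes. Called were 3, all lower. Nfkbid, a nuclear IkB protein, was 5034 and 2915 in wild type and 6035 and 3337 in Nrdp1-/- (-0.82 ± 0.13, adjusted p = 3.63e-07, limma), and was 1.77-fold lower. The NF-kB subunit Relb was 2341 and 1571, and 2654 and 1718 (-0.60 ± 0.14, adjusted p = 0.00185, limma). The subunit precursor Nfkb2 was 1042 and 801, and 1263 and 717 (-0.60 ± 0.16, adjusted p = 0.0139, limma). For all 3 genes both 8 h signals were below both 4 h signals, as in 16% of all genes tested. Tnfaip3, a deubiquitinase that ends NF-kB signalling, was at -0.26 and -0.31 and was not called.

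Among surface molecules and signalling proteins the decreases were mostly smaller than 2-fold. Cd83 was 2465 and 1415 in wild type and 2662 and 1929 in Nrdp1-/- (-0.63 ± 0.14, adjusted p = 0.000746, limma). Cd5, an inhibitory coreceptor whose level follows receptor signal strength, was 5897 and 4057, and 6548 and 4236 (-0.58 ± 0.13, adjusted p = 0.00162, limma). Both genes were lower at 8 h without overlap between the times, and Cd5 was at 3623 and 4540 in untreated cells. Fallen too were Ccr9, a homing receptor for the small intestine (-0.61 and -0.53), and Il6st, the shared signalling chain of the interleukin-6 receptor family (-0.59 and -0.53). The times overlapped for Ccr9. Of 29 T cell receptor signalling components 0 were called in limma, with 1 higher and 3 lower at an unadjusted p under 0.05, and 18 were lower in both genotypes against 2 higher. Over all genes 26.7% were lower and 23.7% higher in both. The medians of the 29 components were -0.06 and -0.15. After median centring 18 were again lower in both, against 31.1% of all genes. Lcp2, the adaptor SLP-76, stood at -0.44 and -0.39, and Zap70, the kinase recruited to the receptor, at -0.17 and 0.16. CD8 markers were also lower, in 6 of 7 members in both genotypes, with a median of -0.17 in wild type and -0.19 in Nrdp1-/-.

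Bcl6, a repressor that steers T cells towards memory, was 1119 and 696 in wild type and 1231 and 629 in Nrdp1-/- (-0.82 ± 0.16, adjusted p = 6.67e-05, limma). It was the 1 called gene of 20 effector and memory transcription factors, where 0.767% of all genes were called lower. Irf4 (-0.35 and 0.08), Irf8 (-0.27 and -0.20), Eomes (-0.06 and 0.54) and Tbx21 (0.46 and 0.41), which direct effector differentiation, did not pass. Bcl2l11, the pro-apoptotic BH3-only protein Bim, fell from 7440 to 5278 and from 6604 to 4903 (-0.46 ± 0.13, adjusted p = 0.0374, limma). The granule protease Ctsw fell from 3641 to 2592 and from 5185 to 3736 (-0.48 ± 0.13, adjusted p = 0.0224, limma), with overlap between the times.

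Genes with other roles fell too. Ephx1, a microsomal epoxide hydrolase, was 3433 and 1472 in wild type and 2503 and 1123 in Nrdp1-/- (-1.19 ± 0.14, adjusted p = 1.44e-14 by limma and 0.00129 with all 6 arrays). It was 2.28-fold lower and below the untreated signals of 1691 and 1340 again at 8 h in both genotypes. Hace1, an E3 ubiquitin ligase, was 809 and 204 in wild type and 654 and 372 in Nrdp1-/- (-1.38 ± 0.20, adjusted p = 1.95e-09, limma). Mdn1, an ATPase that releases assembly factors from large ribosomal subunits, was 3242 and 1744, and 3155 and 1947 (-0.79 ± 0.13, adjusted p = 1.92e-06 by limma and 0.0331 with all 6 arrays). The times did not overlap for any of these genes. The 2 other probe sets of Mdn1 were below the brightness limit, and the mean over its 3 probe sets went the other way (0.11). Mdn1 was the 1 called gene of 47 ribosome biogenesis factors, where 0.767% of all genes were called lower.

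Gzmb, the granule serine protease with which cytotoxic T cells kill, rose with the smallest p of all genes. It read 367 at 4 h and 1299 at 8 h in wild type, and 795 and 4560 in Nrdp1-/-, from 112 and 223 in untreated cells. Both 8 h arrays were above both 4 h arrays, as in 14.2% of all genes tested. The mean change was 2.16 ± 0.15 (adjusted p = 1.99e-43 by limma, 0.0902 without the trend and 0.00129 with all 6 arrays), or 4.47-fold. No other of 13 cytotoxic granule genes rose. Nkg7, a granule membrane protein, was at 0.33 and 0.25, and the granule serpin Serpinb9 at 0.37 and 0.33.

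Of 16 enzymes of amino acid metabolism and targets of the stress-induced factor ATF4, 5 rose and 0 fell, against 0.498% called higher over all genes. The other 11 were not called, 5 of the 16 differed in sign between the genotypes, and with all 6 arrays 0 were called (8 were higher at an unadjusted p under 0.05 in the paired limma test). Cth, which makes cysteine from cystathionine, was 93 and 603 in wild type and 84 and 631 in Nrdp1-/- (2.74 ± 0.25, adjusted p = 2.58e-23 by limma, 0.0166 without the trend and 0.0837 with all 6 arrays). At 6.69-fold this was the largest mean rise among the called genes, and it was nearly equal in the 2 genotypes. Gpt2, the mitochondrial alanine aminotransferase, was 144 and 313, and 167 and 422 (1.20 ± 0.25, adjusted p = 0.000505, limma). Bcat1, which transaminates branched-chain amino acids, was 468 and 745, and 602 and 1232 (0.85 ± 0.17, adjusted p = 0.000128, limma). In each of these genes the times did not overlap, and all had been far lower in untreated cells, at 4 to 42.

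The other called members of the list, named after their values were seen, were Eif4ebp1, which holds back cap-dependent translation (0.45 and 1.06), and asparagine synthetase, Asns (0.46 and 0.55). Asns was 634 and 877 in wild type and 1738 and 2545 in Nrdp1-/-, so its times overlapped, and a second probe set differed by 0.97 and 0.83. Atf4 itself was at 0.12 and 0.13, not called, and the mean over its probe sets was -0.10. The list median was 0.20 in wild type and 0.41 in Nrdp1-/-, and 0.23 and 0.27 with each array centred on its median. In serine synthesis Psat1 was 2634 and 3286, and 2909 and 4714 (0.51 ± 0.13, adjusted p = 0.0125, limma), and Psph was 1754 and 2157, and 1490 and 2463 (0.51 ± 0.14, adjusted p = 0.0188, limma). These were 2 of 9 serine and one-carbon enzymes, against 0.498% called higher over all genes. In both the times did not overlap, as in 14.2% of all genes tested. Slc7a3, a transporter of cationic amino acids, rose (0.66 and 1.19), as 1 of 12 amino acid transporters. Wars, the tryptophanyl-tRNA synthetase, which interferon also induces, was 933 and 2529 in wild type and 2120 and 2815 in Nrdp1-/-, so that its rise was 1.43 in the former and 0.41 in the latter. The 3 other probe sets of Wars that were bright enough were higher in both genotypes. Of the other 17 tRNA synthetases none was called in limma, and in the whole list 2 were higher at an unadjusted p under 0.05.

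Single receptor and survival genes rose, from lists with as many or more members lower than higher. Of 17 cytokine receptors 1 was called higher and 1 lower, of 12 members of the Bcl2 family 1 and 1, and of 13 activation surface molecules 1 and 2. Over all genes 0.498% were called higher and 0.767% lower. Il2ra, the high-affinity chain of the interleukin-2 receptor, was 545 and 916 in wild type and 804 and 1702 in Nrdp1-/- (0.91 ± 0.16, adjusted p = 3.39e-06, limma). A second Il2ra probe set differed by 0.99 and 1.14, so the receptor chain rose over the hours in which Il2 itself fell. Bcl2, which protects cells from death, was 2447 and 3925, and 3523 and 6445 (0.78 ± 0.13, adjusted p = 2e-06 by limma and 0.0217 with all 6 arrays). At 4 h Bcl2 lay only slightly below untreated cells in both genotypes (2471 and 3787), and at 8 h above them. A dip at 4 h was not tested. Its 4 other probe sets of sufficient brightness were all higher in both genotypes. Cd200, an immunoglobulin-family ligand, was 257 and 496, and 260 and 717 (1.19 ± 0.20, adjusted p = 3.39e-06, limma). Cish, a feedback inhibitor of cytokine receptors of the SOCS family, was 579 and 729, and 809 and 1604 (0.66 ± 0.16, adjusted p = 0.005, limma), with overlap between the times. Its relative Socs2 was 1.08 and 1.00 higher but dim, at 72 to 227, and not called (limma, adjusted p = 0.1).

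Single members were called higher in the lists of glycolysis, nucleotide and polyamine synthesis, G1 to S entry and other immediate early genes. Over all genes 0.498% were called higher. Hexokinase 2, Hk2, the first step of glycolysis, rose from 652 to 829 and from 610 to 1303 (0.72 ± 0.16, adjusted p = 0.0017, limma). Of 18 glycolysis genes 11 were higher in both genotypes, against 23.7% of all genes. Spermidine synthase, Srm, rose from 2662 to 3241 and from 2896 to 4514 (0.46 ± 0.13, adjusted p = 0.0371, limma). Cdk6, a G1 kinase named after its values were seen, was the 1 called gene of 33 for G1 to S entry and replication (0.21 and 0.72). Gadd45g, a stress-induced signalling protein, rose from 193 to 254 and from 324 to 767 (0.81 ± 0.22, adjusted p = 0.0214, limma). In each of these 4 the rise was smaller in wild type than in Nrdp1-/-, a difference that was not tested. The times overlapped for Cdk6 and Gadd45g. Myc, the driver of T cell growth, was at 0.19 and 0.25 and was not called.

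Several lists without a single call leaned one way by small amounts. Of 37 proteasome subunits 24 were higher in both genotypes and 0 lower, with medians of 0.15 and 0.19 and the largest mean rise at 0.42 (Psmd14, 0.26 and 0.58). Of 47 genes of the respiratory chain and ATP synthase 29 were higher in both and 1 lower (medians 0.12 and 0.08), of 42 mitochondrial ribosomal proteins 25 and 3 (0.09 and 0.13), and of 28 heat shock proteins and chaperones 18 and 2 (0.06 and 0.19). At an unadjusted p under 0.05 in limma, 5, 6, 3 and 5 members of these lists were higher and 0 lower. The share of all genes higher in both genotypes was 23.7%, and of those lower in both 26.7%. These directions depended in part on scaling: after each array was centred on its median the counts were 19 and 1, 13 and 0, 17 and 2, and 11 and 2. Of all genes 14.7% were then higher and 31.1% lower in both. The Nrdp1-/- medians of the respiratory chain and of the mitochondrial ribosomal proteins were then -0.07 and -0.01. Cytosolic ribosomal proteins showed no common direction, with 1 of 26 higher and 2 lower in both.

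**Figure D4:**
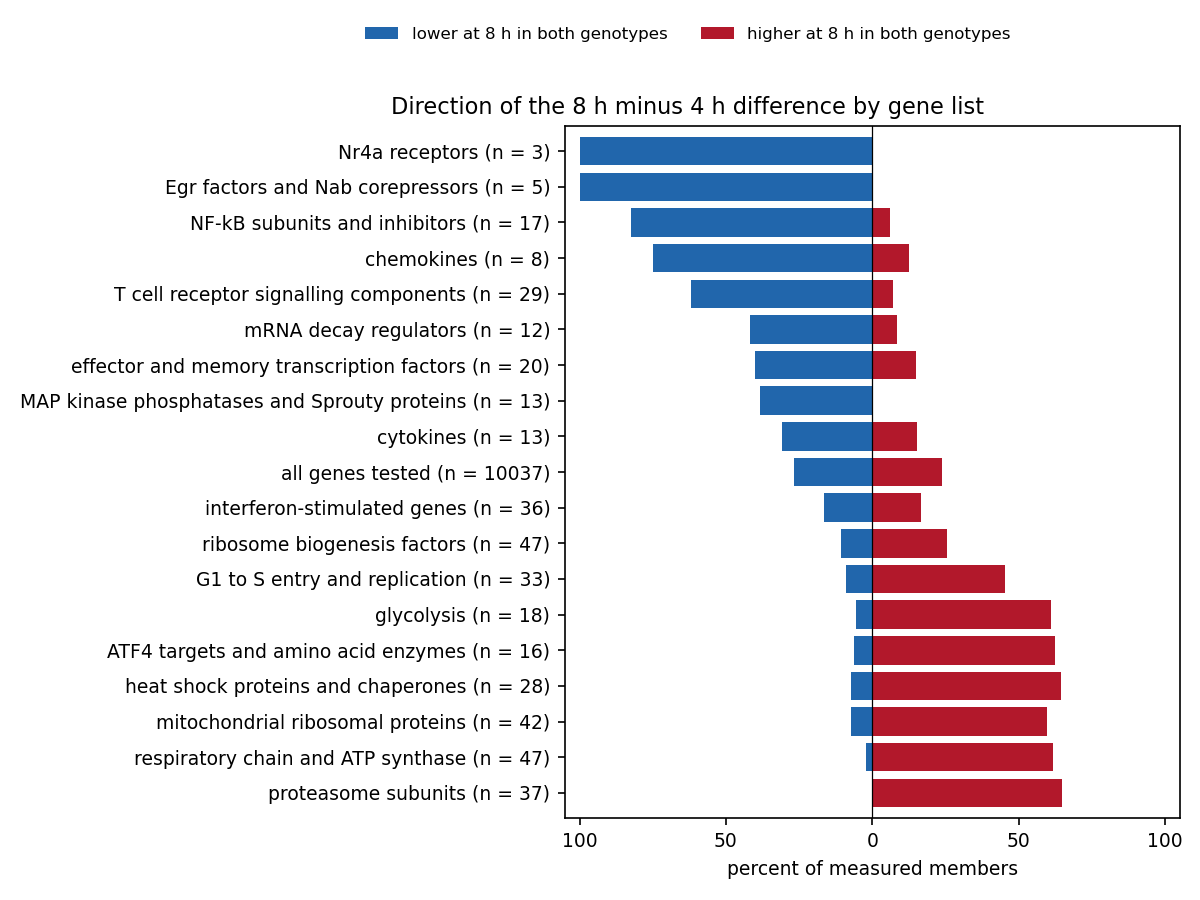
Percentage of the measured members of each gene list, and of all genes tested, that were lower (blue, to the left) or higher (red, to the right) at 8 h in both genotypes. The remaining members differed in sign between the genotypes. Nr4a, Egr and NF-kB lists stand to the left of the 26.7% of all genes, and proteasome, mitochondrial and amino acid lists to the right of the 23.7%.

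Interferon-stimulated genes often differed in sign between the genotypes. Their median was 0.24 in wild type and -0.18 in Nrdp1-/-, and 24 of 36 members had opposite signs, against 49.6% of all genes. Irf7, an interferon-induced factor, was at 0.90 and 0.15, and Ifit3 at 0.61 and 0.03. None of the 36 was called in limma, with 4 higher and 1 lower at an unadjusted p under 0.05. Cd69, an early activation marker, was 5458 and 3633 in wild type and 5437 and 6769 in Nrdp1-/-, so the genotypes were nearly equal at 4 h and apart at 8 h.

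Genes known from myeloid cells were among the largest decreases. Of 11 measured myeloid markers 3 fell and 9 were lower in both genotypes, with a median of -0.47 in wild type and -1.46 in Nrdp1-/-. Over all genes 0.767% were called lower and 26.7% were lower in both. Gpnmb, a macrophage glycoprotein, was 117 and 46 in wild type and 478 and 88 in Nrdp1-/- (-1.83 ± 0.34, adjusted p = 4.13e-05, limma). Csf1r, the macrophage growth factor receptor, was 200 and 131, and 605 and 177 (-1.17 ± 0.26, adjusted p = 0.00112, limma). Lyz1, a lysozyme whose probes may also read its near-identical neighbour gene, was 669 and 843, and 4154 and 1441. Prg2, an eosinophil granule protein, fell too (-0.68 and -2.09), as did the transglutaminase subunit F13a1, from 144 to 41 and from 185 to 58, at least 2.35-fold against the array medians. Immunoglobulin genes named after their values were seen, Igha (-0.15 and -0.96) and Iglv1 (-0.14 and -0.78), fell, mainly in Nrdp1-/-, in which B cell markers were at 3061 and 3053. In the model of all 6 arrays without the Nrdp1-/- array at 8 h, Lyz1 and Igha changed sign, to 0.47 and 0.12. The part of these cells in the other decreases was not tested. In wild type the sum over all 16 myeloid markers on the array was 2773 and 2541. It included Lyz1 and Lyz2 (352.5 and 451.9), which were higher at 8 h, while the median of the measured markers was -0.47. On the same wild-type arrays Nr4a2 differed by -1.73, Ccl3 by -1.28, Ephx1 by -1.22, Tnfsf14 by -1.12, Xcl1 by -0.98 and Il2 by -0.86.

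Several genes that passed 2-fold in both genotypes had low signals. Beside Cth, Gzmb and Gpt2 the higher ones were Krtap12-1, a hair keratin-associated protein (86 and 256, 25 and 186), Srcin1 (48 and 179, 29 and 148) and Cenpm, a centromere protein (27 and 95, 58 and 129). Srcin1 and Cenpm were below the array median at 4 h on both arrays, and against it they were at least 2.44-fold and at least 1.68-fold higher, so that 2-fold is not reached for Cenpm by this bound. Beside Ephx1, Gpnmb and F13a1 the lower one was Mfsd4b4 (214 and 83, 286 and 131). Cenpm was not called (limma, adjusted p = 0.139). Rpl39 was 196 and 355 in wild type and 26 and 246 in Nrdp1-/-. It has near-identical copies elsewhere in the genome, so its signal is uncertain.

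Other probe sets of the called genes gave a partial check, on the same RNA. Of 54 further probe sets bright enough to test, for 30 of the lower genes, 41 (75.9%) were lower in both genotypes. Of 42 for 28 of the higher genes, 29 (69%) were higher in both. Over all genes the shares were 26.7% and 23.7%. In the mean over both genotypes 3 and 5 probe sets went the other way, among them 1 of 3 probe sets of Bcat1 (-0.37 and 0.05).

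Set beside the untreated arrays, which share the 4 h arrays' genotypes but took no part in the calls, most fading genes were ones that stimulation had raised. Of the 77 lower genes 56 (72.7%) were above untreated cells in both genotypes at 4 h, where 30.3% of all genes tested were. At 8 h 30 of these 56 were still above untreated cells in both genotypes, 13 were below in both and 13 differed between genotypes. Il2, the Nr4a genes, Xcl1 and Ccl3 belonged to the first kind and Ephx1 to the second. Of the 50 higher genes 27 (54%) were above untreated cells in both genotypes at 4 h, where 30.3% of all genes tested were. All 27 were above at 8 h too, among them Gzmb, Cth and Il2ra. A further 17 were below untreated cells in both genotypes at 4 h, where 38.9% of all genes tested were. At 8 h 7 of these 17 were above untreated cells, Bcl2 among them, whose 4 h signals were only slightly below. Since the 4 h arrays enter both differences, these counts describe the course and are not a separate test.

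Promoter windows were searched for short motifs of the factors named above. RefSeq promoters of GRCm38.p6, each 250 bases before to 50 after a start, were used for 98 of the 127 called genes: 60 lower genes with 84 windows and 38 higher genes with 43. Motifs were sought as exact letters on both strands. Shares are given in the order of windows of lower genes, of higher genes, of all genes tested and of the whole table. The kappaB motif, bound by NF-kB and searched as 10 letters of which 2 were free, was in 4.76%, 4.65%, 1.75% and 1.63%. Of the 4 matching windows of lower genes 3 belong to Nfkb2, which has several starts, so that 2 of 60 lower and 2 of 38 higher genes had a match. The AP-1 motif TGACTCA was in 3.57%, 6.98%, 3.49% and 5.2%. The ATF4 motif TGATGNAA was in 0%, 9.3%, 2.24% and 3.97%, the second share being 4 windows of 4 genes. These were Asns, Chchd10, Gadd45g and Mdfic, and in Mdfic the match lay after the start. Only Asns of these is a called member of the list of ATF4 targets and amino acid enzymes. Of the other 7 motifs, the E box CACGTG of Myc and Max was in 11.9%, 18.6%, 10.4% and 7.15%, and the CRE TGACGTCA in 1.19%, 4.65%, 3.19% and 1.79%. The STAT motif TTCCNNGAA was in 7.14%, 4.65%, 4.43% and 4.81%, the T-box motif AGGTGTGA in 0%, 2.33%, 0.869% and 1.28%, and the Egr motif GCGTGGGCG in 1.19%, 2.33%, 1.28% and 0.612%. The CArG box of SRF and a composite of NFAT and AP-1 sites were in none of the windows of called genes and in 0.0639% and 0.00913% of all. The composite contains the AP-1 letters. A match is a description of the letters only, and no test was made. The windows shown are from 2 fading and 3 rising genes with a match in the 250 bases before the start, with the motif in capitals. They show where it stands: at position -58 from the start in Gzmb, -160 in Tnfsf14 (both TGACTCA, read on the other strand), -11 in Nfkb2 (kappaB), -23 in Asns, and -85 and -72 in Chchd10 (TGATGNAA). Chchd10, a mitochondrial protein, was 2073 and 2503 in wild type and 1783 and 3098 in Nrdp1-/- and was chosen after its values were seen.
Gzmb (GRCm38.p6, chr14:56262335-56262584, minus strand): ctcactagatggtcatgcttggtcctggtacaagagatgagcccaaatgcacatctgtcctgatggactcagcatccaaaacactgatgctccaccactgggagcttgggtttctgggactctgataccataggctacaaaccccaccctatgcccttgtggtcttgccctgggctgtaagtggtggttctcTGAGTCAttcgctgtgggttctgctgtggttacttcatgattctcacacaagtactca
Tnfsf14 (GRCm38.p6, chr17:57194182-57194431, minus strand): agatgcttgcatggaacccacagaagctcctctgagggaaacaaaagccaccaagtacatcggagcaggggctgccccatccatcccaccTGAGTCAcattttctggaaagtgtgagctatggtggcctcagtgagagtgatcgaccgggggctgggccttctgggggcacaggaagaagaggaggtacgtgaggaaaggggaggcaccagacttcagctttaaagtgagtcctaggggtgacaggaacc
Nfkb2 (GRCm38.p6, chr19:46304487-46304736, plus strand): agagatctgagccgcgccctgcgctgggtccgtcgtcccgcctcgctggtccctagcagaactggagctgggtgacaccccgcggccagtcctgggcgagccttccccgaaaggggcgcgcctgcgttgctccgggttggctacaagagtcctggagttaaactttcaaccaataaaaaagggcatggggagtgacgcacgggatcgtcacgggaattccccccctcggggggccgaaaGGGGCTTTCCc
Asns (GRCm38.p6, chr6:7693210-7693459, minus strand): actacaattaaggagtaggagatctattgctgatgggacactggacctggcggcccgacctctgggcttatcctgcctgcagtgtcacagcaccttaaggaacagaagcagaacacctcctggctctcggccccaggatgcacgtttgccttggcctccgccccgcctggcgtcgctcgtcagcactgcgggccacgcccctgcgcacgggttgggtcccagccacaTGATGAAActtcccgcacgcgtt
Chchd10 (GRCm38.p6, chr10:75932880-75933129, plus strand): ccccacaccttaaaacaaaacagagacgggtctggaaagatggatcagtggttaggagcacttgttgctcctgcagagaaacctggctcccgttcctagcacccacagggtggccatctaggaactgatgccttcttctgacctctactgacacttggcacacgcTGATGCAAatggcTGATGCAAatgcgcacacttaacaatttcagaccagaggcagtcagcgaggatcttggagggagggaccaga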

How the data were processed

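RNA was measured on Affymetrix mouse arrays, 1 per genotype and condition. The authors deposited linear signal intensities from MAS5, which the submitters' processing notes name without a version. The values show that the authors scaled each array to a trimmed mean of 500, so a shift of most transcripts one way would be hidden. Detection calls were not used here. Of 45101 probe sets, 64 were controls, 34945 had 1 gene symbol in the platform annotation, 932 had several and 9160 were unnamed. RefSeq (GRCm38.p6) matched 34741 of those with 1 symbol by Entrez identifier, and 0 symbols changed. Each of 18193 genes was represented by its brightest probe set over the 4 stimulated arrays. Genes whose mean log2 signal reached the mean array median were tested (10037, 55.2%). Log2 values carried a pseudocount of 4.5, the 10th percentile, which understates changes of dim genes. Where both arrays of a time read less than the array median, the fold change is a bound against that median.

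The two-sided test, with time and genotype as terms, used lmFit and eBayes of limma 3.58.1 (R 4.3.3) with a trend on intensity, and adjusted p-values by Benjamini-Hochberg to a threshold of 0.05. It was also run on simulated data, with noise drawn from its own fitted variances, alone or with added spread between genes. Such a run cannot tell which variance model holds for these arrays. Pairing by genotype follows from the titles. With 1 array per pair and time it cannot be checked from the values, and no batch is given in the labels. The number of arrays limits the precision.

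Members and gene lists were chosen with earlier results of these data known. Named were up to 10 called genes per direction with the largest mean difference of the same sign in both genotypes, up to 12 per direction at least 2-fold in both, up to 3 members per list and direction, all members of lists of at most 6 genes, a fixed set of activation genes, and up to 5 bright genes per pattern that differed at least 1.5-fold in opposite directions. Not all of these are printed. Ift80, Asns, Eif4ebp1, Atf4, Cdk6, Chchd10, Lyz1, Igha and Iglv1 fall outside this rule and were named after their values were seen. Alternatives were quantile normalization, median centring, a pseudocount of 1 or at the 30th percentile, no filter, stricter and looser filters, averaging all probe sets of a gene, no trend, all 6 arrays, no genotype block, a 2-fold minimum, and each stimulated array left out.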

Additional observations from a re-analysis of the deposited data

Results flagged for a closer look

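Among bright genes, Cdkn1b and Chrac1 moved at least 1.5-fold in opposite directions in the genotypes from 4 h to 8 h. Each value is 1 array against 1 array, and the difference between the genotypes was not tested. Cdkn1b, the cell cycle inhibitor p27, was 6614 and 3591 in wild type and 3450 and 5411 in Nrdp1-/-, so its log2 differences of -0.88 and 0.65 were 1.53 apart. Chrac1, a subunit of a chromatin remodelling complex, was 3699 and 2260 in wild type and 2412 and 4210 in Nrdp1-/-, at -0.71 and 0.80, which were 1.51 apart. Untreated signals were 6046 and 5956 for Cdkn1b and 2184 and 1962 for Chrac1 in wild type and Nrdp1-/-. Over all genes tested, 32 went at least 1.5-fold down in wild type and up in Nrdp1-/-, and 19 the reverse.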

How the results depend on the processing

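Of the 127 called genes, which were chosen for large differences, 127 kept their sign under quantile normalization, median centring and both other pseudocounts, 116 of the 118 measured did with all probe sets of a gene averaged, and 125 to 127 did with 1 array left out. The filters, the trend, the genotype block and the untreated arrays cannot change a gene's mean difference in this balanced design, so its sign is no check there. The counts of higher and lower genes, and of called list members (40), became 16, 29 and 22 with quantile normalization, 13, 35 and 21 with median centring, 2, 3 and 4 with the mean of probe sets (627 at an unadjusted p under 0.05), 1, 0 and 1 without the trend (742), 2, 4 and 4 with all 6 arrays, and 0, 0 and 0 without the genotype block, which is the replicate block here (355). A 2-fold minimum left 11 and 16, and the filter at the 70th percentile 33 higher genes. Leaving out 1 stimulated array in the model of all 6 gave 18 to 33 higher (fewest without Nrdp1-/- at 8 h), 19 to 75 lower (fewest without wild type at 4 h) and 16 to 25 list members. There the lone array of a time was assumed to vary like the others. Each of these runs missed many of the 127 genes and called others outside them. The counts and kept signs therefore do not show that the same genes were called. In the 4-array model an array left out leaves 1 pair and no test.

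The counts of genes 2-fold higher or lower in both genotypes, 6 and 4, became 382 and 253 without a filter, 16 and 14 with the filter on 2 arrays, 1 and 1 at the 70th percentile, and 59 and 63 at 1.5-fold, and the lower count was 7 with median centring.

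Some gene values changed sign. Zap70 was 0.018 under quantile normalization and 0.055 as the mean of probe sets, Mdn1 was 0.11 and Atf4 -0.10 in that mean, and Chrac1 was -0.013 with median centring. With 1 array left out the values spanned -0.14 to 0.14 for Zap70, -0.59 to 0.69 for Chrac1, -0.54 to 0.27 for Cd69, -0.73 to 0.50 for Cdkn1b, -0.79 to 0.15 for Csf2, -0.80 to 0.12 for Cxcl10, -0.40 to 0.13 for Irf4, -0.58 to 0.11 for Irf8, -0.001 to 0.46 for Jun, -0.41 to 0.86 for Ifng, -1.23 to 0.12 for Igha, -1.66 to 0.47 for Lyz1 and -0.68 to 0.042 for Tnf. The cause of these changes in counts and signs was not tested. Pairing by genotype and 1 array per genotype and time limit all of these comparisons.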
